A study of Mus musculus with 8 samples.

Results

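The extracellular and cell-surface metalloproteases, the plasminogen activators and their inhibitors were followed in cortex RNA from mouse embryos at day 16 of gestation. A list of 40 genes was taken by name, and a gene counted as measured where at least 1 probe set carries its symbol and no other. This left 37 of the 40, among 19938 genes in the table, with 9 of 10 matrix metalloproteases (Mmp), 10 of 10 members of the Adam family, 10 of 11 members of the Adamts family, 5 of 5 inhibitors (Timp1 to Timp4 and Reck) and 3 of 4 genes of plasminogen activation. Mmp15, Adamts2 and Serpine2 had no such probe set and were not analysed here. Each of the others was read by 1 probe set, except Adamts3 with 16 and Adamts9 with 6, which were averaged.

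Total RNA was measured on 8 Affymetrix whole-transcript arrays. The 4 control arrays come from wild-type embryos without the TetO-VEGF-A164 transgene, and whether they carry GFAP-tTA is not given. The 4 others come from GFAP-tTA: TetO-VEGF-A164 bitransgenic embryos. There the tetracycline transactivator tTA is made under the promoter of the glial gene Gfap and switches on this form of VEGF-A, the growth factor of blood vessels. Both groups have a mixed strain background, so effects of VEGF-A, of the transgene insertions and of other differences in genotype cannot be told apart. The question is which genes of the cortex differ under VEGF-A. Nothing says that the arrays of a group are separate litters or single embryos, so the p-values speak of the spread among these arrays, which may be technical.

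The deposited values are logarithms, taken as log2 because no base is stated, and are centred per probe set on the median over the 8 arrays. Centred values cannot show whether the defining markers of cortex are absent from an array. A value says how far an array lies from that median. It holds no level, the brightness over background is unknown, and genes can be compared by their differences alone. Array medians lay between -0.0091 and 0.0154. The spread of the arrays was unequal, with interquartile ranges between 0.0609 and 0.1425. Vegfa lay at -0.10, 0.036, -0.12 and 0.026 in control 1 to 4 and at 0.059, 0.078, -0.026 and -0.055 in VEGF 1 to 4, a difference of 0.053 (SE 0.051, limma, adjusted p = 0.748). Whether this probe set reads the transgene was not tested, and as it does not separate the groups, the group is named by its label, as VEGF-labelled. By Xist and Y-linked genes, 1 control array (control 3) and 2 VEGF-labelled arrays (VEGF 2 and VEGF 3) looked female. Projection neuron genes, a marker list of which 11 of 12 were measured, had list means of 0.25, 0.012, 0.034 and 0.22 in control 1 to 4 and -0.36, -0.40, -0.23 and 0.019 in VEGF 1 to 4. For 12 of 12 markers of meninges and fibroblasts, cells of the brain's coverings, the means were -0.045, 0.13, -0.21 and 0.00071 and 0.028, 0.15, -0.43 and 0.062. In bulk tissue, fewer cells of a type and less RNA per cell cannot be told apart.

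These enzymes remodel the matrix around cells. Matrix metalloproteases cut collagens, laminins and other matrix proteins, and some of them are anchored in the membrane. Adam proteases shed the outer parts of membrane proteins such as Notch, growth factor precursors and cytokines, whereas a few Adam proteins lack an active site and act as adhesion proteins. Adamts proteases are secreted and cut proteoglycans and procollagens, the Timp proteins and Reck inhibit many of these enzymes, and the plasminogen activators turn plasminogen into plasmin, which in turn activates some metalloproteases. In growing vessels such proteases open the basement membrane and release matrix-bound VEGF.

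The promoters of the 5 genes with an unadjusted p under 0.01 in limma are shown, since these genes had the largest differences relative to their SE. Each line gives the 250 bases before the gene start from RefSeq on GRCm38.p6, written 5′ to 3′ on the gene's own strand. Capitals mark GGGCGG on either strand, the GC box bound by Sp1. The sequences lie at chr10:75932503-75932752 on the minus strand for Mmp11, at chr14:54431348-54431597 on the plus strand for Mmp14, at chr12:21373633-21373882 on the minus strand for Adam17, at chr6:92943535-92943784 on the minus strand for Adamts9 and at chr8:113848840-113849089 on the minus strand for Adamts18.
Mmp11: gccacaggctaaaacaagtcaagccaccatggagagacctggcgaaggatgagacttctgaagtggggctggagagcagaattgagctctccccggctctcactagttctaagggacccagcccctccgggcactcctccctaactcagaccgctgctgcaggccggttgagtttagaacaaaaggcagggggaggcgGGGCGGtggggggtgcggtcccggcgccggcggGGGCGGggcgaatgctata
Mmp14: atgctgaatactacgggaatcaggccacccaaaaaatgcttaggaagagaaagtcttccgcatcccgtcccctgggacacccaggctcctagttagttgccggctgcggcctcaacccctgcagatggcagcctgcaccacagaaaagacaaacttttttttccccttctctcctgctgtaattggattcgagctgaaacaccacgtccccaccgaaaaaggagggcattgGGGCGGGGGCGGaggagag
Adam17: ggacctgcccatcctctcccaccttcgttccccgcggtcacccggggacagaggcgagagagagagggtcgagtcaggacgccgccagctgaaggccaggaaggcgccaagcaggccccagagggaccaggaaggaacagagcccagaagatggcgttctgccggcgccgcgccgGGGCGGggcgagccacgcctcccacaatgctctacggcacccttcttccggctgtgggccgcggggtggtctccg
Adamts9: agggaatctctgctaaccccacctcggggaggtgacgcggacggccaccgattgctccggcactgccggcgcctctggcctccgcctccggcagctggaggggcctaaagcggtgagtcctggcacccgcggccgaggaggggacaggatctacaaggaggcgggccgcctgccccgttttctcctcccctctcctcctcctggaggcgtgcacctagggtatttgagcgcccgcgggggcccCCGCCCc
Adamts18: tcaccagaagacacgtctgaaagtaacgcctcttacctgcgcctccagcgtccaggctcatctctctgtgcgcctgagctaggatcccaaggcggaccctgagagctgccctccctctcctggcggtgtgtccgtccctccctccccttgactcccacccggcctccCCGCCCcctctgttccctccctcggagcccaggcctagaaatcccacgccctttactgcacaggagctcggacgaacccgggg
All 5 windows held a GC box, with 2 in Mmp11 and Mmp14 and 1 in each of the others. Of 32851 promoter windows of this length in the RefSeq table, 32.7% held one, and of the 13478 windows at least as rich in G and C as the poorest of the 5, 65.3% did. The 5 windows were 55.2% to 71.2% G and C. A promoter was listed for 23 of the 37 measured genes, and 18 of these 23 held a GC box. The AP-1 motif TGANTCA, searched on both strands, was in none of the 5 windows and in those of Mmp3, Adam19 and Plaur. It was in 6.75% of all windows and in 3.59% of the 13478 windows rich in G and C. The hypoxia core ACGTG, also searched on both strands, was in the windows of Mmp14 and Adamts18 among the 5 and in 7 of the 23. It was in 16.6% of all windows and in 21.6% of the 13478 windows rich in G and C. No motif searched contains another, and a match is a description of the sequence.

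No gene of this group passed the test. With limma over all genes and Benjamini-Hochberg adjustment, 0 of 37 passed an adjusted p of 0.05, the background being 0% of 19938 genes, and the adjusted p of the 37 lay between 0.243 and 0.987. At an unadjusted p under 0.05 there were 11 of 37, 4 higher and 7 lower in the VEGF-labelled arrays, or 29.7% beside 12.5% of all genes. In each direction the background was 4.62% of all genes higher and 7.84% lower. The methods' t-test gave 0 of 37 after adjustment and 7 of 37 at an unadjusted p under 0.05, beside 10.6% of all genes, and limma without control 1 gave 7 at an unadjusted p under 0.05, beside 7.65%. The 2 groups of arrays did not overlap in 6 of 37 genes, 4 higher and 2 lower, or 16.2% beside 6.84% of all genes (2.13% higher and 4.71% lower). Of the 37, 15 were higher and 22 lower, and of all 19938 genes 8628 were higher and 11310 lower. The median difference of the 37 was -0.016, near the -0.010 of all genes, and the median of its size without sign was 0.099 beside 0.046. The list was chosen with earlier results of these data known, so these shares and sizes describe it and are no independent test. Dim probe sets could not be filtered from the 37 or from all genes. Among 21 further proteases of the same families, described below, 14.3% had an unadjusted p under 0.05, and the median size was 0.037.

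**Figure D1:**
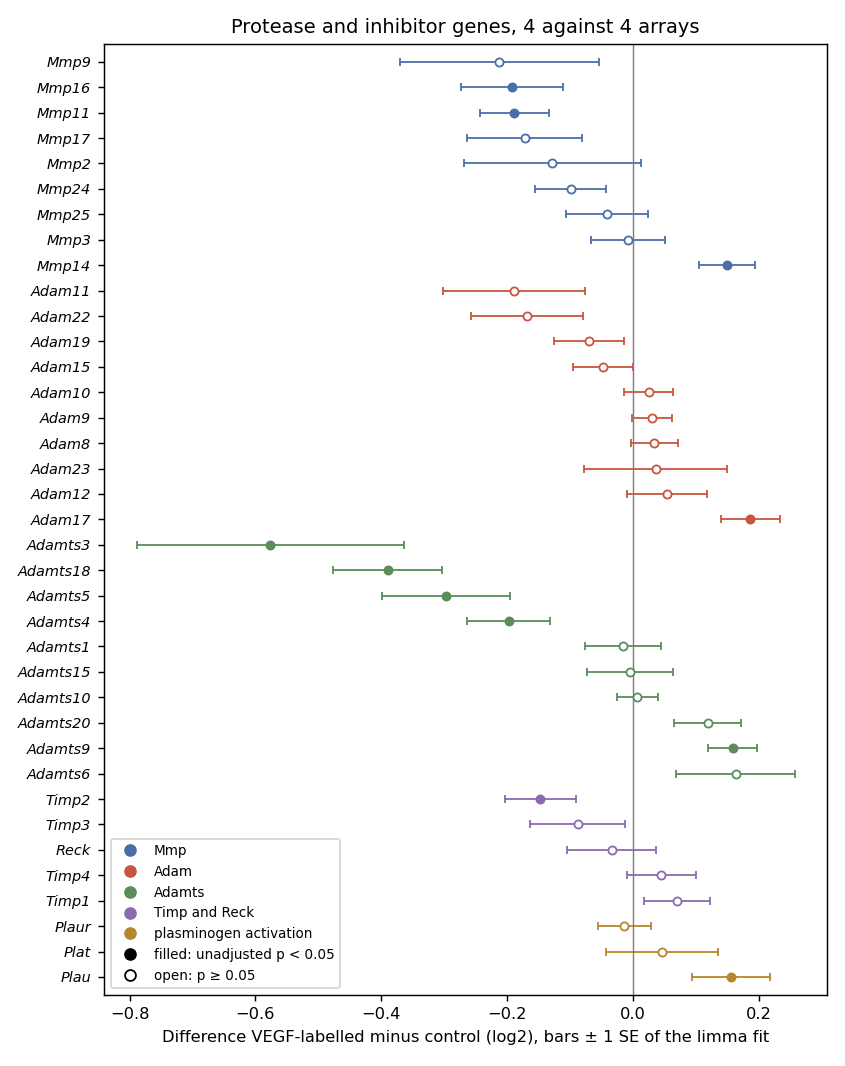
Difference of each of the 37 measured genes between 4 VEGF-labelled and 4 control arrays on the log2 scale, with bars of 1 SE from the limma fit, colours for the subfamilies and filled points at an unadjusted p under 0.05. The other points lie between -0.21 and 0.19, while Adamts3, Adamts18 and Adamts5 lie farther to the left, at -0.58, -0.39 and -0.30, and no gene passed the adjusted threshold.

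Among the matrix metalloproteases, 8 of 9 were lower and 1 was higher, with a median of -0.13, beside 11310 lower of all 19938 genes. After quantile normalization 7 were lower and 2 higher with a median of -0.090, beside 10396 lower of all genes. Of the 9, 3 had an unadjusted p under 0.05, or 33.3% beside 12.5% of all genes. Mmp14, the membrane-type protease that activates pro-Mmp2 at the cell surface, was the higher one. It lay at -0.19, -0.029, -0.11 and -0.051 in control 1 to 4 and at 0.029, 0.033, 0.12 and 0.040 in VEGF 1 to 4. The groups did not overlap, and VEGF 3 was the highest array. The means were -0.094 ± 0.071 for control and 0.055 ± 0.043 for VEGF-labelled arrays (SD over 4 arrays each), a difference of 0.15 (SE 0.044), or 1.11-fold if the base is 2 (limma, unadjusted p = 0.00774, adjusted p = 0.260).

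Mmp11, stromelysin 3, lay at 0.18, 0.047, -0.000012 and 0.14 in control 1 to 4 and at -0.065, -0.18, -0.14 and 0.000012 in VEGF 1 to 4. The groups touched at control 3 and VEGF 4, and the other arrays were apart. Its difference was -0.19 (SE 0.054, limma, unadjusted p = 0.00703, adjusted p = 0.251). Mmp16, another membrane-type enzyme, was at 0.23, 0.029, -0.036 and 0.16 and at -0.11, 0.041, -0.29 and -0.029 in the same order, with overlapping groups. The difference of Mmp16 was -0.19 (SE 0.081, limma, unadjusted p = 0.0419, adjusted p = 0.383), and without VEGF 3 it was -0.13. The gelatinases, which cut type IV collagen and denatured collagen, had the largest SE among the Mmp genes. Mmp2, gelatinase A, was at -0.082, 0.21, -0.17 and 0.082 in control and at 0.088, 0.10, -0.53 and -0.13 in the VEGF-labelled arrays. VEGF 3 was far below the rest, and without it the difference of -0.13 (SE 0.14, limma, adjusted p = 0.790) became 0.0089. Mmp9, gelatinase B, was at 0.16, 0.37, -0.40 and 0.13 in control and at -0.093, -0.20, -0.38 and 0.093 in the VEGF-labelled arrays. The lowest values were those of control 3 and VEGF 3, and the groups overlapped. Its difference was -0.21 (SE 0.16, limma, adjusted p = 0.655), and it ranged from -0.37 without control 3 to -0.11 without control 2. The other Mmp genes, the secreted Mmp3 (stromelysin 1) and the membrane-anchored Mmp17, Mmp24 and Mmp25, differed by between -0.17 in Mmp17 and -0.0079 in Mmp3, and their groups overlapped.

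**Figure D2:**
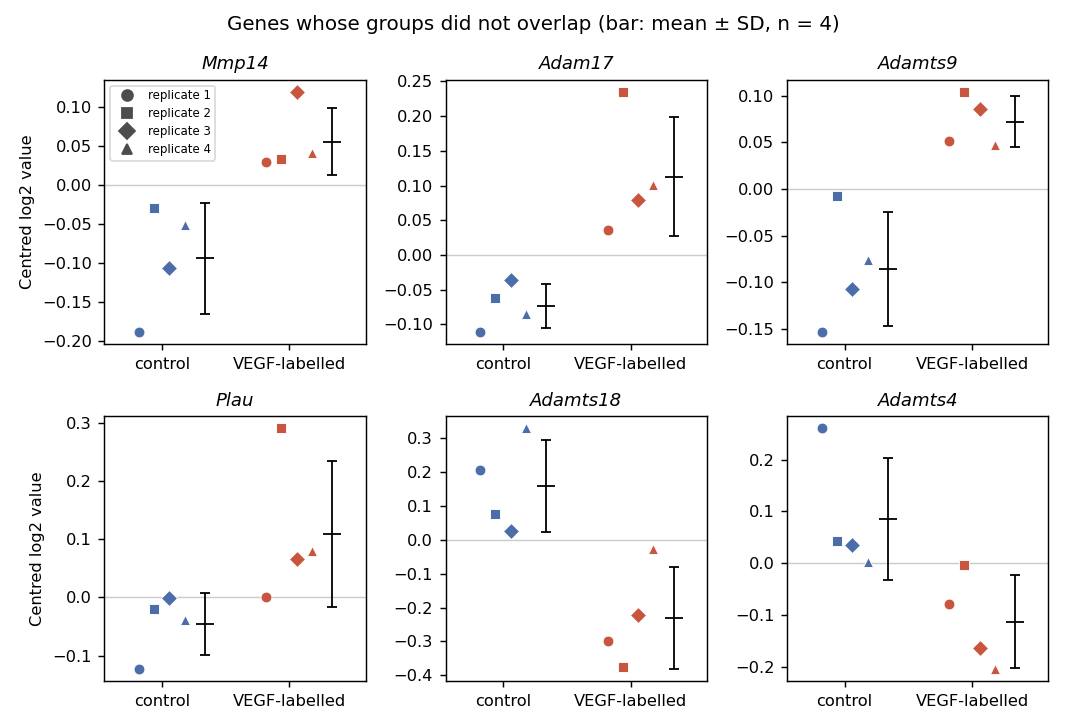
Centred log2 values of the 6 genes whose groups did not overlap, 1 point per array with its replicate number by shape, and a bar for the mean ± SD of 4 arrays. Mmp14, Adam17, Adamts9 and Plau lie higher and Adamts18 and Adamts4 lower in the VEGF-labelled arrays, and in Plau and Adamts4 the nearest arrays of the groups almost touch.

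The Adam genes were split, with 6 of 10 higher, 4 lower and a median of 0.027. Only Adam17 had an unadjusted p under 0.05, or 10% of the family beside 12.5% of all genes. Adam17, or TACE, is the sheddase of tumour necrosis factor and of several ligands of the EGF receptor. It lay at -0.11, -0.063, -0.036 and -0.085 in control 1 to 4 and at 0.036, 0.24, 0.079 and 0.10 in VEGF 1 to 4. All VEGF-labelled arrays were above all control arrays, with VEGF 2 the highest. The means were -0.074 ± 0.032 for control and 0.11 ± 0.086 for VEGF-labelled arrays (SD over 4 arrays each), a difference of 0.19 (SE 0.047) or 1.14-fold if the base is 2 (limma, unadjusted p = 0.00307, adjusted p = 0.243). Adam10, the closest relative of Adam17 and the sheddase of Notch and of the amyloid precursor protein, was at -0.021, 0.0019, 0.016 and -0.0019 in control arrays and at 0.030, 0.11, -0.024 and -0.021 in VEGF 1 to 4. Its groups overlapped, and the difference was 0.025 (SE 0.038, limma, adjusted p = 0.865). The difference between these sheddases was not tested.

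Adam11, Adam22 and Adam23 lack the active site of a protease and are neuronal surface proteins, and Adam22 binds the secreted protein Lgi1. Adam22 lay at 0.15, 0.052, 0.080 and -0.10 in control and at -0.15, 0.069, -0.35 and -0.052 in the VEGF-labelled arrays, a difference of -0.17 (SE 0.089, limma, adjusted p = 0.493). Adam11 lay at 0.17, 0.22, -0.086 and 0.012 and at 0.16, -0.012, -0.34 and -0.25, a difference of -0.19 (SE 0.11, limma, adjusted p = 0.553). In both genes VEGF 3 was the lowest array and the groups overlapped, and the difference without VEGF 3 was -0.091 for Adam22 and -0.11 for Adam11. Adam23 differed by 0.036, and it too was lowest in VEGF 3, at -0.24. The other Adam proteases, Adam8, Adam9, Adam12, Adam15 and Adam19, differed by between -0.070 in Adam19 and 0.054 in Adam12.

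The Adamts family held the largest differences of the 37 genes. Of its 10 measured members, 5 had an unadjusted p under 0.05, 1 higher and 4 lower, or 50% beside 12.5% of all genes. Its median was -0.010, with 4 higher and 6 lower. Adamts18, a secreted protease, had the smallest p of the 37. It lay at 0.20, 0.076, 0.027 and 0.33 in control 1 to 4 and at -0.30, -0.38, -0.22 and -0.027 in VEGF 1 to 4. The groups did not overlap, and VEGF 4 was closest to control. The means were 0.16 ± 0.14 for control and -0.23 ± 0.15 for VEGF-labelled arrays (SD over 4 arrays each), a difference of -0.39 (SE 0.087), or 0.763-fold if the base is 2 (limma, unadjusted p = 0.00147, adjusted p = 0.243). Without single arrays the difference lay between -0.46 and -0.33, and the lowest adjusted p among these fits was 0.086.

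Adamts3, the procollagen N-proteinase that also cleaves reelin and processes VEGF-C, had the largest difference. This gene and Adamts5 were singled out after their values were seen. Adamts3 lay at 0.70, -0.046, 0.034 and 0.67 in control 1 to 4 and at -0.59, -0.39, -0.14 and 0.17 in VEGF 1 to 4. Control 1 and control 4 were high, VEGF 1 and VEGF 2 were low, and the other arrays lay between them with overlap of the groups. The means were 0.34 ± 0.40 for control and -0.24 ± 0.33 for VEGF-labelled arrays (SD over 4 arrays each), a difference of -0.58 (SE 0.21), or 0.671-fold if the base is 2 (limma, unadjusted p = 0.0236, adjusted p = 0.333). Its unadjusted p was not under 0.05 in the methods' t-test, nor in limma without control 1, control 4, VEGF 1 or VEGF 2. All 16 probe sets of Adamts3 were lower in the VEGF-labelled arrays, by -0.72 to -0.42, and these share their RNA and are not replicates. In control 1 the 16 lay between 0.55 and 0.89, and in VEGF 1 between -0.87 and -0.35.

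Adamts3 and Adamts18 were high and low in the arrays where the projection neuron genes were. The list means given above were highest in control 1 and control 4 and lowest in VEGF 1 and VEGF 2, as was Adamts3, and VEGF 4 lay above VEGF 1 to 3 in all of these. Control 1 and control 4 were also the highest arrays in Mmp11, Mmp16, Mmp17 and Adamts5. The same held for the mean of the interneuron and ventral forebrain markers, at 0.42 and 0.31. In these, VEGF 1 and VEGF 2 were not together the lowest arrays. With the projection neuron list mean as a covariate, an alternative added after the data were seen, the difference of Adamts3 was 0.20 and that of Adamts18 -0.081, and 0 of the 37 genes had an unadjusted p under 0.05 beside 4.1% of all genes. This covariate itself differs between the groups, and its part in the result and that of the groups cannot be told apart. With the list mean of thalamus and hippocampus genes as a covariate, Adamts3 differed by -0.20 (limma, unadjusted p = 0.149) and Adamts18 by -0.26 (limma, unadjusted p = 0.00607). In that fit 8 of 37 genes had an unadjusted p under 0.05 beside 10.5% of all genes. The means of that list were -0.35, 0.24, -0.15 and -0.31 in control 1 to 4 and 0.61, 0.54, 0.071 and -0.23 in VEGF 1 to 4. Of its 8 genes 7 were higher in the VEGF-labelled arrays, so its part and that of the groups cannot be told apart either.

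**Figure D3:**
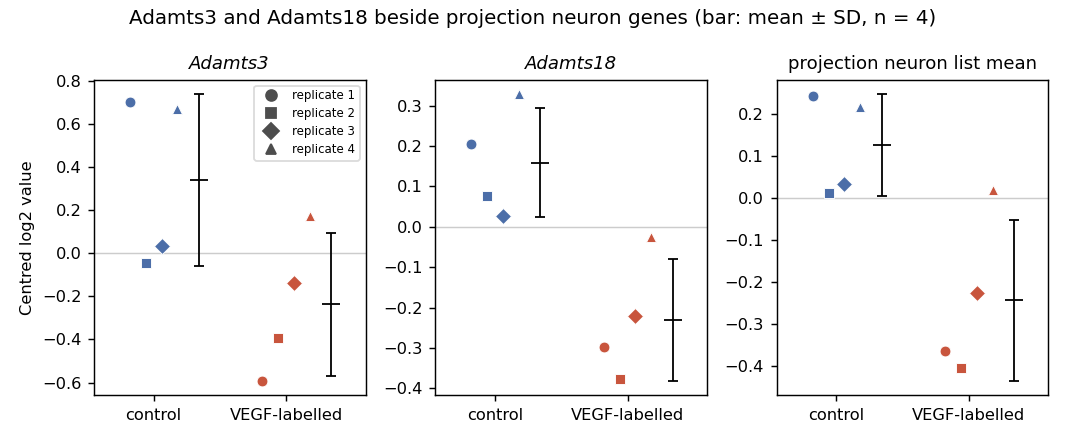
Centred log2 values of Adamts3 and Adamts18 and the mean of 11 projection neuron genes, 1 point per array with its replicate number by shape, and a bar for the mean ± SD of 4 arrays. In all of the panels control 1 and control 4 are the highest arrays and VEGF 1 and VEGF 2 the lowest.

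Adamts4 and Adamts5, the aggrecanases, cut the proteoglycans aggrecan, versican and brevican. Adamts4 was at 0.26, 0.043, 0.036 and 0.0031 in control and at -0.079, -0.0031, -0.16 and -0.20 in the VEGF-labelled arrays. The groups did not overlap, by a narrow margin, and control 1 stood above the rest. Its difference was -0.20 (SE 0.066, limma, unadjusted p = 0.0151, adjusted p = 0.296), and -0.14 without control 1. Adamts5 was at 0.21, 0.057, -0.054 and 0.24 in control and at -0.13, 0.054, -0.42 and -0.24 in the VEGF-labelled arrays, and the groups overlapped. Its difference was -0.30 (SE 0.10, limma, unadjusted p = 0.0167, adjusted p = 0.307), and -0.22 without VEGF 3, the lowest array.

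Adamts9, a secreted protease that cuts versican and is made by vessel endothelium, differed the other way. Its mean over 6 probe sets lay at -0.15, -0.0070, -0.11 and -0.076 in control 1 to 4 and at 0.052, 0.10, 0.086 and 0.048 in VEGF 1 to 4. The groups did not overlap, and the VEGF-labelled arrays lay close together. The means were -0.086 ± 0.062 for control and 0.072 ± 0.028 for VEGF-labelled arrays (SD over 4 arrays each), a difference of 0.16 (SE 0.039), or 1.12-fold if the base is 2 (limma, unadjusted p = 0.00291, adjusted p = 0.243). All 6 probe sets were higher, by 0.094 to 0.23. The mean of 10 endothelial markers was at 0.021, 0.094, -0.19 and 0.025 in control and at -0.010, 0.053, -0.26 and 0.051 in the VEGF-labelled arrays, with overlapping groups. Adamts1, a versican-cutting protease with anti-angiogenic activity, was at 0.0064, 0.073, -0.085 and 0.15 and at -0.0096, 0.15, -0.047 and -0.0064, a difference of -0.016 (SE 0.061, limma, adjusted p = 0.952). The others, Adamts6, Adamts10, Adamts15 and Adamts20, differed by between -0.0048 in Adamts15 and 0.16 in Adamts6. The sign of Adamts15 and of Adamts1 is within their SE, and with arrays centred on their medians or quantile normalization the family had 5 higher and 5 lower.

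Of the inhibitors, 2 of 5 were higher and 3 lower, with a median of -0.034. At an unadjusted p under 0.05 there was 1 of 5, or 20% beside 12.5% of all genes. Timp2, which inhibits Mmp enzymes and also bridges Mmp14 and pro-Mmp2, was the only one with an unadjusted p under 0.05. It lay at 0.13, 0.15, -0.0044 and 0.025 in control 1 to 4 and at 0.0018, -0.088, -0.20 and -0.0018 in VEGF 1 to 4. Control 1, control 2 and control 4 were above all VEGF-labelled arrays, control 4 by a narrow margin. Control 3 lay just below VEGF 1 and VEGF 4. The difference was -0.15 (SE 0.057, limma, unadjusted p = 0.0292, adjusted p = 0.348), and -0.10 without VEGF 3. Timp3, the matrix-bound inhibitor of Adam17 and of the aggrecanases that also blocks binding of VEGF to its receptor Kdr, was at 0.044, 0.12, -0.044 and 0.0063 in control and at 0.086, -0.0063, -0.28 and -0.025 in the VEGF-labelled arrays. It was lowest in VEGF 3, and its difference of -0.088 (SE 0.075, limma, adjusted p = 0.713) was -0.013 without that array and -0.14 without VEGF 1. Timp1, the inducible inhibitor, was at 0.011, 0.0075, -0.14 and -0.055 and at -0.065, 0.049, -0.0075 and 0.13, a difference of 0.070 (SE 0.052, limma, adjusted p = 0.656) that was 0.035 without VEGF 4 and 0.039 without control 3. Timp4 and Reck, the membrane-anchored inhibitor and co-receptor for Wnt7 signals in brain vessels, differed by 0.045 and -0.034, with overlapping groups.

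In plasminogen activation, Plau, the urokinase-type activator, was at -0.12, -0.020, -0.0015 and -0.039 in control 1 to 4 and at 0.0015, 0.29, 0.065 and 0.080 in VEGF 1 to 4. The groups were apart, but VEGF 1 was level with control 3 within 0.01, and VEGF 2 was the highest array. Its difference was 0.16 (SE 0.062, limma, unadjusted p = 0.0338, adjusted p = 0.364), and 0.095 without VEGF 2. Plat, the tissue-type activator that is made by endothelium and neurons, was at -0.063, -0.030, -0.12 and 0.088 and at 0.069, 0.21, -0.24 and 0.030. Its groups overlapped, with VEGF 2 the highest and VEGF 3 the lowest, and the difference was 0.046 (SE 0.089, limma, adjusted p = 0.896). Plaur, the receptor of urokinase, was at -0.048, 0.074, -0.022 and 0.022 and at -0.065, -0.049, 0.038 and 0.046, a difference of -0.014 (SE 0.043, limma, adjusted p = 0.940).

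Across the 37 genes, VEGF 3 was the lowest of the 8 arrays in 15, or 40.5%, beside 22.2% of all genes, and control 3 was the highest in 0, beside 5.78% of all genes. Control 2 was the highest array in 11 of 37 genes, or 29.7%, beside 24.4% of all genes. VEGF 3 was lowest in 4 of 9 Mmp genes, 5 of 10 Adam genes, 2 of 10 Adamts genes, 3 of 5 inhibitors and 1 of 3 genes of plasminogen activation. The meninges and fibroblast list and the endothelial and pericyte lists were also lowest in VEGF 3, at -0.43, -0.26 and -0.22, and next lowest in control 3, at -0.21, -0.19 and -0.12. In these lists 10 of 12, 7 of 10 and 6 of 8 markers had their lowest value in VEGF 3. The projection neuron list mean was lowest in VEGF 2, at -0.40. VEGF 3 was the highest array in all 11 measured mitosis markers and in 6 of 11 radial glia markers, with list means there of 0.28 and 0.12. Of these lists, 11 of 11 and 8 of 11 markers were higher in the VEGF-labelled arrays. Their part in the differences of the 37 genes was not tested. All 12 markers of interneurons and ventral forebrain, in contrast, had their lowest value in VEGF 3. Their list means were 0.42, 0.23, 0.035 and 0.31 in control 1 to 4 and -0.23, -0.13, -0.80 and -0.20 in VEGF 1 to 4, with groups apart. All 12 were lower in the VEGF-labelled arrays, with a median difference of -0.52. Of them, 9 had an unadjusted p under 0.05, or 75% beside 12.5% of all genes, while 0 passed the adjusted threshold (limma). The part of this list in the differences of the 37 genes was not tested. Of the 11 genes with an unadjusted p under 0.05, 9 kept it without VEGF 3. All 11 kept it with the meninges and fibroblast list mean as a covariate. The groups overlapped in that list mean, with a median marker difference of 0.027, so this covariate could change the differences only little. Adamts18 differed by -0.39 with and without it. The part of these cells in the differences was not tested.

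**Figure D4:**
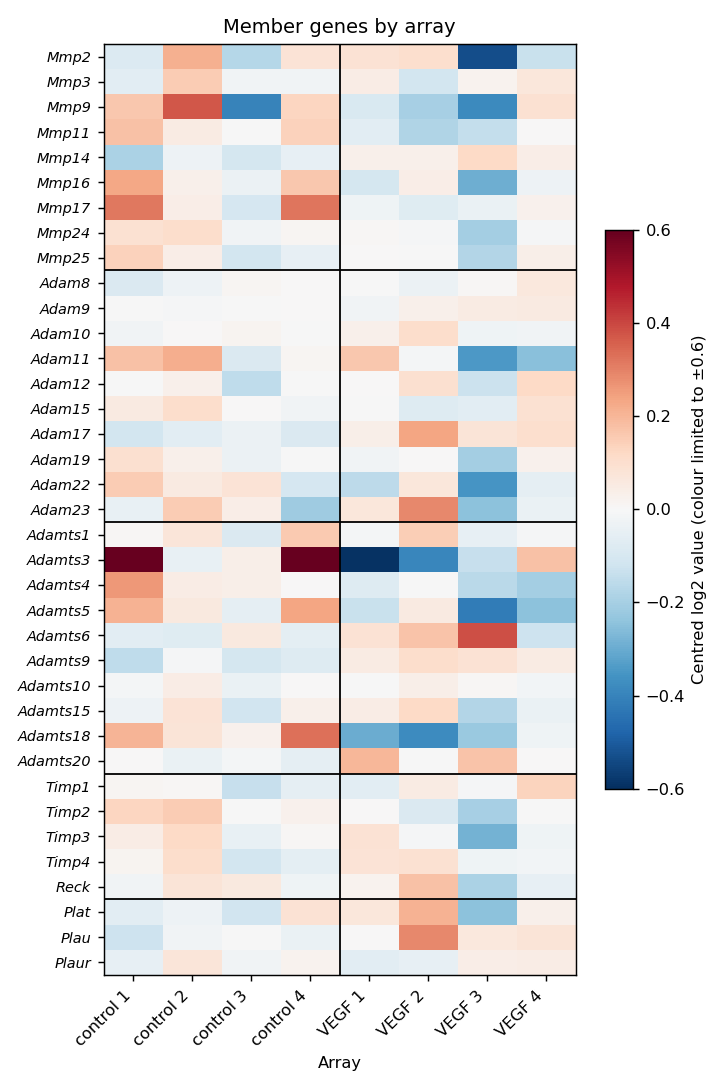
Centred log2 values of the 37 genes in each of the 8 arrays, rows ordered by subfamily and colour limited to 0.6 either way, red above and blue below the median of a gene. VEGF 3 is the lowest array in 15 of the 37 rows, and Adamts3 has the strongest colours, red in control 1 and control 4 and blue in VEGF 1 and VEGF 2.

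**Figure D5:**
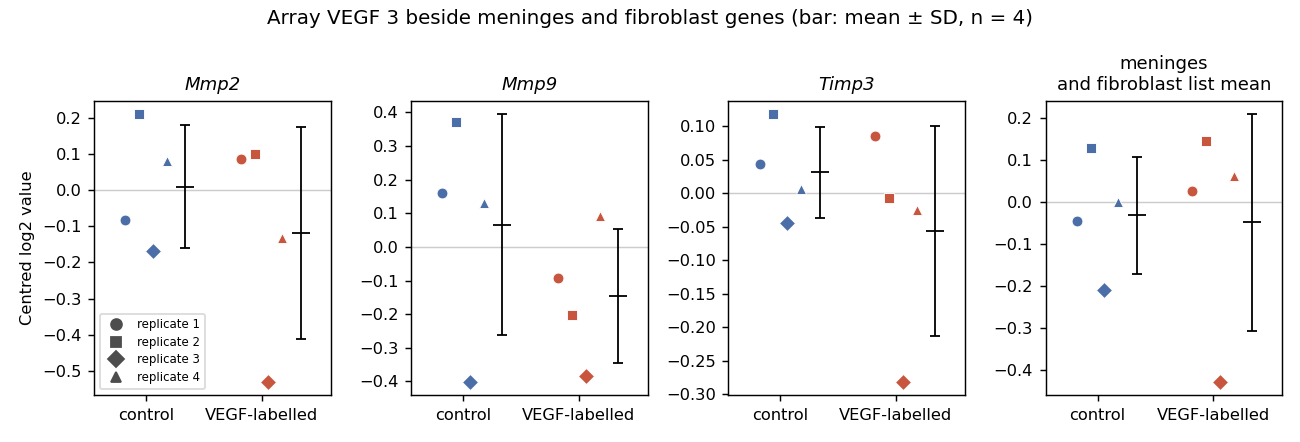
Centred log2 values of Mmp2, Mmp9 and Timp3 beside the mean of 12 meninges and fibroblast markers, 1 point per array with its replicate number by shape, and a bar for the mean ± SD of 4 arrays. Array VEGF 3 is the lowest or next lowest in each panel, at -0.53 in Mmp2, -0.38 in Mmp9, -0.28 in Timp3 and -0.43 in the marker mean.

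Other genes of the same system were described through 4 lists, of which 0 genes passed the adjusted threshold. At an unadjusted p under 0.05 the lists described next held 14.3%, 16.7%, 25% and 10.5% of their measured genes, beside 12.5% of all genes. Among 21 further proteases of the Mmp, Adam and Adamts families, 5 were higher and 16 lower, with a median of -0.037 and 3 at an unadjusted p under 0.05, all lower. They were Adamts7, Adamts17 and Adamts16, with differences of -0.16, -0.21 and -0.13 (limma, adjusted p = 0.276, adjusted p = 0.277 and adjusted p = 0.375). Of 30 measured activators, inhibitors and partners, 1 was higher and 4 were lower at an unadjusted p under 0.05, with a median of -0.034 over the list. Tspan14, a tetraspanin that binds Adam10, Adamtsl3, a relative of the Adamts proteins without the protease domain, and Plgrkt, a plasminogen receptor, differed by -0.18, -0.32 and -0.15, with groups apart in each (limma, adjusted p = 0.243, adjusted p = 0.243 and adjusted p = 0.285). The others, named after their values were seen, were Rhbdf2, an inactive rhomboid needed for Adam17 to mature, and the protease inhibitor A2m, with differences of 0.10 and -0.23 and overlapping groups (limma, adjusted p = 0.338 and adjusted p = 0.368). Adamtsl3 was at -0.31, -0.43, -0.26 and -0.016 in VEGF 1 to 4, so that VEGF 4 was close to its control arrays, which lay between 0.016 and 0.16.

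Substrates in the matrix had a median of 0.038 over 20 genes, with 3 higher and 2 lower at an unadjusted p under 0.05. Lama1, a laminin chain of basement membranes, lay at -0.19, -0.030, -0.097 and -0.14 in control 1 to 4 and at 0.15, 0.19, 0.030 and 0.16 in VEGF 1 to 4. Its groups did not overlap, with control 2 and VEGF 3 the nearest arrays, and the difference was 0.25 (SE 0.049, limma, unadjusted p = 0.00064, adjusted p = 0.243). Fibronectin, Fn1, differed by 0.26 and perlecan, Hspg2, by 0.16, also with groups apart (limma, adjusted p = 0.243 and adjusted p = 0.260). The 2 lower ones, named after their values were seen, were the brain proteoglycans neurocan and brevican, Ncan and Bcan, which Adamts proteases cut. They differed by -0.18 and -0.20 with groups that overlapped (limma, adjusted p = 0.274 and adjusted p = 0.321). Among 19 membrane proteins that are shed or cleaved, 5 were higher and 14 lower with a median of -0.045, and 2 had an unadjusted p under 0.05. The interleukin 6 receptor Il6ra, the EGF receptor ligand Hbegf and the membrane chemokine Cx3cl1, which are shed by Adam17 or Adam10, differed by -0.14, -0.21 and -0.20 (limma, adjusted p = 0.310, adjusted p = 0.341 and adjusted p = 0.403).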

How the data were processed

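RNA of 8 samples of brain cortex was extracted with a Qiagen kit, and from 120 ng of it cDNA was made and biotin-labelled, per the labels' protocols. Affymetrix Expression Console and build mm8 appear in the submitters' processing notes, and the series text names an unpaired t-test in GeneSpring. Background correction and the summary of probes were not given in the sources used here. Values read as log2, the base being unstated, were deposited by the authors for 28853 probe sets, each centred on its median over the 8 arrays (within 5e-07). Centring allows no filter on dim probe sets.

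Of the probe sets, 21789 had 1 gene symbol in the platform annotation, updated through Entrez identifiers to RefSeq (GRCm38.p6) for 21698. Those with several (1621) or none (5443) were left out. Means per gene were fitted with limma 3.58.1 in R 4.3.3 (lmFit, eBayes, two-sided, no covariates, Benjamini-Hochberg over 19938 genes, threshold 0.05), and the fit was tested on simulated data. Differences are VEGF minus control, and errors beside them are SEs of that fit.

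Groups came from the sample titles, 4 and 4. All array values are given for the 3 genes of smallest p in each subfamily, for a set named whatever its values (Mmp2, Mmp9, Mmp14, Adam10, Adam17, Adamts1, Timp3, Plat) and for any other gene at an unadjusted p under 0.05. Of each pathway list the 3 genes of smallest p are named, and after their values were seen also Ncan, Bcan, Rhbdf2 and A2m. The genes and lists were chosen with earlier results of these data known. Alternatives were scaling, prior, array weights, covariates, the methods' t-test, probe sets, the replicate block and leaving out arrays.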

Additional observations from a re-analysis of the deposited data

Results flagged for a closer look

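In Mmp14, VEGF 3 lay at 0.12, far above the other VEGF-labelled arrays, with a gap of 0.877 of the group's range. In Adamts4, control 1 lay at 0.26, far above the other control arrays, with a gap of 0.843 of the range. Both gaps pass Dixon's critical value for 4 arrays, and chance alone passes it in about 1 of 20 groups. Such gaps were looked for in 21 genes with 2 groups each.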

How the results depend on the processing

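No gene of the 37 passed the adjusted threshold under any alternative, and over all genes 0 passed except without VEGF 4, so that without single arrays the count lay between 0 and 10. At an unadjusted p under 0.05 the count of 11 lay between 7 and 13 without single arrays (7.65% to 14.4% of all genes). It was 7 in the methods' t-test (10.6%), 29 of 57 when all probe sets were tested alone (12.4%), where Adamts3 counts with 16, and 0 with the projection neuron list mean as a covariate (4.1%, added after the data were seen). With a sex index from Xist and Y-linked genes as a covariate the count was 10 (11.1%), all among the 11, with Mmp16 lost. With the replicate block the count was 13 (13.3%). The replicate numbers were not taken as pairs, since the series text names an unpaired t-test. Same-numbered arrays had deviations correlated at 0.052, -0.13, 0.454 and 0.301, and 4 of 8 arrays correlated best with their own number. Whether arrays of the same number share a batch cannot be told from these values. In the 5 arrays of male pattern, the other added alternative, the count was 8 (7.94%), of which 6 were among the 11. Of these 8 genes, 1 was higher and 7 were lower. Mmp14, Adamts9, Plau, Adamts3 and Timp2 kept their sign but no longer had an unadjusted p under 0.05. Adam17 was the higher gene that kept it.

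Of 21 named genes, 15 never changed sign. Plaur was 0.0023 after quantile normalization, 0.0022 with array weights, 0.0041 with the thalamus and hippocampus covariate and 0.030 with the projection neuron covariate. Plat was -0.0013, -0.011 and -0.0089 with the last 3 of these. Adam10 was -0.010 with the thalamus and hippocampus covariate and -0.050 with the projection neuron covariate, and Adamts3 was 0.20 with the latter. Without single arrays, Mmp2 ranged from -0.20 to 0.0089, Adam10 from -0.0036 to 0.040, Adamts1 from -0.058 to 0.023, Plat from -0.018 to 0.13 and Plaur from -0.032 to 0.0086. The cause was not tested. Signal over background is unknown, and 4 arrays a group limit the precision.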
